A study of Danio rerio with 2 samples.

Results

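The genes described here encode proteins of the red blood cell membrane and regulators of red cell formation in zebrafish. They were chosen by name from the deposited gene table, and the 10 names gata1a, klf1, slc4a1a, epb41b, sptb, ank1a, epor, tfr1a, slc25a37 and rhag corresponded to 12 of the 26597 genes. Names were matched without regard to capitals, and 8 names had 1 gene ID each. The names slc4a1a and ank1a occur in the names table only as SLC4A1 and ANK1, each with 2 gene IDs, so both copies were kept and it is not known which copy is the one marked a. Total RNA of 1 library labelled salvianolate-treated and 1 library labelled WT was sequenced, both labelled as cardiac tissue of zebrafish, and the title of the treated library speaks of embryos. Salvianolate, a medicinal extract of Salvia miltiorrhiza root rich in salvianolic acids, was studied in the series for its action against cardiotoxicity. The labels give no age, dose, duration, strain or number of animals, and no other agent. Each condition is a single library, so differences have no replicate check and no p-value is given; every interval below covers 95% counting error only.

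A zebrafish erythrocyte is nucleated and carries its haemoglobin inside a membrane held by a protein mesh. The anion exchanger band 3, made from slc4a1a, spans that membrane and is tied by ankyrin (ank1a) and protein 4.1 (epb41b) to filaments of spectrin, whose beta chain comes from sptb. The transferrin receptor (tfr1a) brings iron into the cell, mitoferrin 1 (slc25a37) carries it into the mitochondrion for haem synthesis, and the transcription factors Gata1 and Klf1 switch on erythroid genes, while the erythropoietin receptor (epor) sustains the precursor cells. Several of the genes are known from zebrafish mutants with anaemia: vlad tepes carries a lesion in gata1a, retsina in slc4a1a, riesling in sptb, merlot and chablis in epb41b, chianti in tfr1a and frascati in slc25a37.

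The libraries held 19295536 estimated counts (treated) and 19531808 (WT), and 19829 genes reached 1 CPM (a count scaled to library size) in 1 or both libraries; all 12 member genes did. A count of 3 corresponded to 0.152 CPM in the treated and 0.157 CPM in the WT library. Erythroid cells contributed to both, since hbae3, an alpha globin gene, had 4697 FPKM in the treated and 6703 FPKM in the WT library. FPKM is the deposited level per length of gene, used here wherever one gene is set against another. Of the labelled tissue, MYL7, the regulatory light chain of heart muscle myosin, had 14.65 FPKM in the treated and 18.26 FPKM in the WT library, while actc1b, a muscle actin gene used in skeletal muscle, had 10064 FPKM in the treated and 9267 FPKM in the WT library. The cone opsin gene opn1lw2 had 229 FPKM in the treated and 44.15 FPKM in the WT library. By the 2-fold rule given below, 533 genes had more and 143 had less RNA in the treated library, whereas the series' design text gives 109 up-regulated and 565 down-regulated genes. The rule used here was not matched to that of the design text. Of the 533 genes 465, and of the 143 genes 121, had a mean under 10 CPM. At 100 CPM or more, 839 intervals of the ratio of treated over WT lay below 1 and 308 above. Directions here follow the library labels, and with exchanged labels each would turn round.

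Most of the member genes had less RNA in the treated library, but the difference was unequal among them. The log2 ratio of treated over WT was below 0 for 9 of the 12, against 50.3% of all genes above 1 CPM, and ranged in counts from -0.98 (klf1) to 0.44 (EPOR), with a median of -0.31 against -0.0022 over all genes above 1 CPM. For 7 genes the interval of the ratio lay wholly below 1, for 1 gene wholly above 1, and for 4 it included 1. Over all genes above 1 CPM the corresponding shares were 17.4% below and 17.4% above. No member was lower by a fold of 2 or more with an interval that excluded 1, a rule met by 0.721% of all genes, and none was 2-fold higher, where the share was 2.69%. At 1.5-fold, 4 of the 12 were lower, against 2.64% of all genes, and none was higher, against 6.07%. In bulk RNA, fewer erythrocytes and less of these RNAs per erythrocyte cannot be told apart.

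Because abundant genes have narrow intervals, the members were also read against genes of similar level. Among genes with a mean under 10 CPM, 3 of 5 members had an interval below 1, compared with 7.8% of all such genes. Between 10 and 100 CPM it was 3 of 5 members, against 20.0%. At 100 CPM or more it was 1 of 2, against 53.7%, so at that level an interval below 1 was common. These shares describe the members and were not tested, since the members were chosen with earlier results of these data known.

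**Figure D1:**
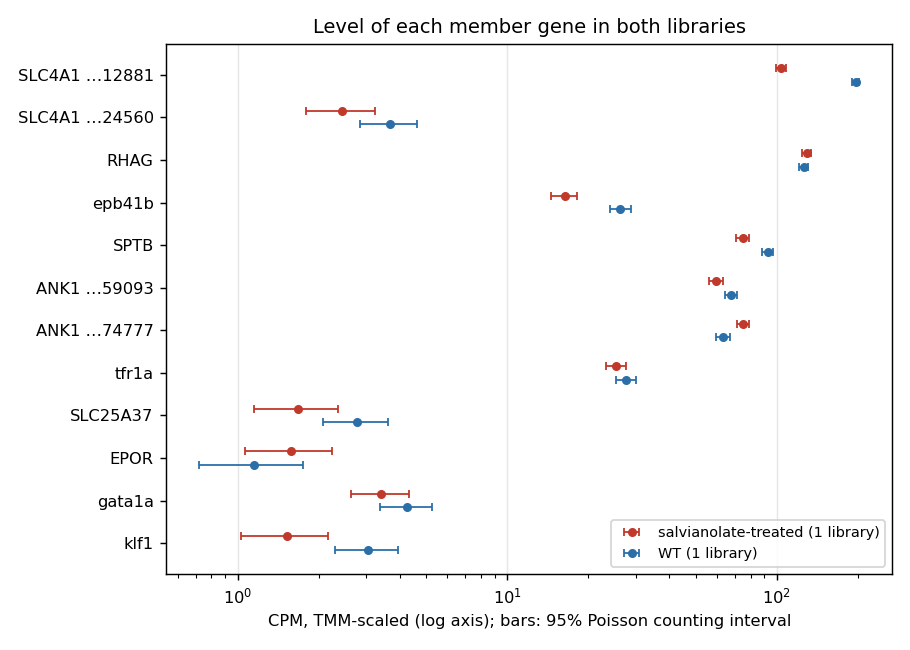
Level of each member gene in the treated (red) and WT (blue) library, in CPM scaled by TMM on a log axis, with 95% Poisson counting intervals; each point is 1 library, and the last 5 digits of the gene ID separate copies of 1 name. SLC4A1 of ID ENSDARG00000012881 stands at 103.7 CPM in the treated and 196 CPM in the WT library, while RHAG stands at 129 CPM in the treated and 126 CPM in the WT library.

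The genes of proteins that span the membrane differed from each other. The abundant band 3 gene, SLC4A1 (ENSDARG00000012881), exchanges chloride for bicarbonate in red cells. It had 2045 counts or 103.7 CPM (interval 99.3 to 108.3) in the treated library, against 3751 counts or 196 CPM (190.03 to 203) in the WT library. That is a log2 ratio of -0.92 (-0.999 to -0.842), or 1.89-fold lower (1.79 to 1.998). Of the 1563 genes with a mean of at least 100 CPM, 4 had a lower ratio. Among these 4 were the erythroid genes hbae1.1 and alas2, described below. The less abundant copy of the name, ENSDARG00000024560, had 48 counts or 2.43 CPM in the treated and 70 counts or 3.66 CPM in the WT library, a log2 ratio of -0.58 (-1.15 to -0.04). Its interval reached above 1 with total-count scaling (-1.09 to 0.02). Both copies were thus lower by the main scaling, with intervals that overlapped each other.

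RHAG (ENSDARG00000019253) encodes the Rh-associated glycoprotein, a red cell membrane protein that passes ammonia in mammals. It had 2550 counts or 129 CPM (124 to 134) in the treated and 2403 counts or 126 CPM (121 to 131) in the WT library. Its log2 ratio of 0.04 (-0.04 to 0.12) showed no difference detectable at this depth, and the interval holds folds between 0.972 and 1.09. With total-count scaling the ratio was 0.10 (0.02 to 0.18), above 1. The intervals of RHAG and the abundant SLC4A1 gene did not overlap. These 2 membrane protein genes, both with a mean of at least 100 CPM, thus had different ratios between the same libraries.

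Per length of gene, this changed which member was the most abundant. In the treated library RHAG came first at 41.4 FPKM (39.8 to 43.05) and SLC4A1 second at 35.01 FPKM (33.5 to 36.6). In the WT library SLC4A1 came first at 63.3 FPKM (61.3 to 65.3) and RHAG second at 38.6 FPKM (37.03 to 40.1). In neither library did the intervals of the pair overlap. Below them in the treated library came ANK1 (ENSDARG00000074777) at 15.1 FPKM, then ANK1 (ENSDARG00000059093), SPTB and tfr1a between 10.7 and 9.57 FPKM, neighbours whose intervals overlapped. In the WT library the same 4 genes lay between 12.3 and 9.89 FPKM, each with an interval that overlapped that of the next. Next were epb41b at 3.23 FPKM in the treated and 4.99 FPKM in the WT library and gata1a at 2.1 FPKM in the treated and 2.5 FPKM in the WT library, each apart from its neighbours. EPOR, klf1, SLC25A37 and the second SLC4A1 gene came last, between 0.62 and 1.02 FPKM in the treated and between 0.72 and 1.37 FPKM in the WT library. The intervals of neighbours among them overlapped.

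**Figure D2:**
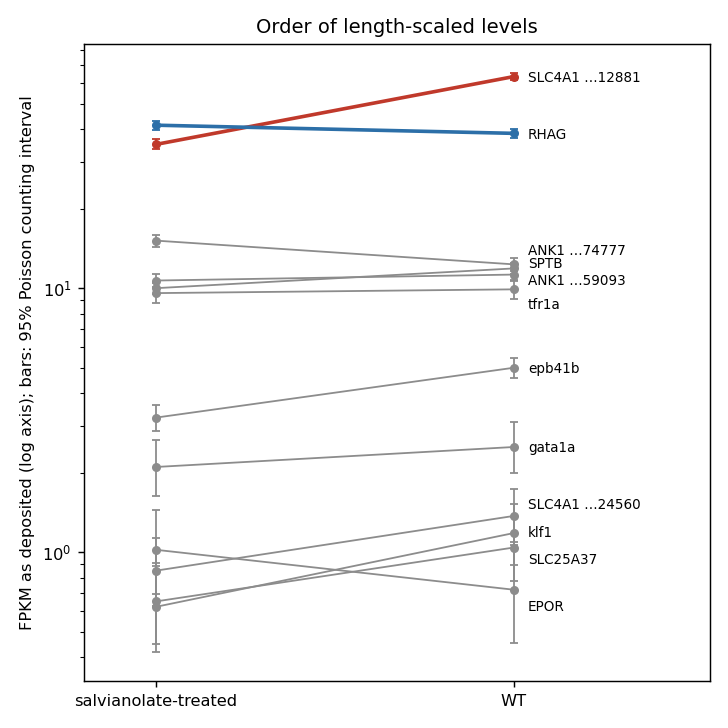
Deposited FPKM of each member gene on a log axis in the treated (left) and WT (right) library, with 95% Poisson counting intervals; each line joins the values of 1 gene. The line of SLC4A1 (red; 35.01 FPKM treated, 63.3 FPKM WT) crosses that of RHAG (blue; 41.4 FPKM treated, 38.6 FPKM WT).

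The sum over the 12 genes, which is weighted by abundance, was 494 CPM in the treated and 614 CPM in the WT library, 19.5% lower. The abundant SLC4A1 gene made up 21.0% of that sum in the treated and 31.9% in the WT library. Without it the sums were 391 CPM in the treated and 418 CPM in the WT library, 6.55% lower. This gene thus accounted for 92.6 of the 120 CPM by which the treated sum was lower.

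Genes of the mesh under the membrane had smaller differences than band 3, apart from protein 4.1. The gene epb41b (ENSDARG00000029019) encodes protein 4.1, which joins spectrin to actin. It had 322 counts or 16.3 CPM (14.6 to 18.2) in the treated library, against 503 counts or 26.3 CPM (24.1 to 28.7) in the WT library. Its log2 ratio was -0.69 (-0.89 to -0.48), 1.61-fold lower, and 61 of the 9680 genes between 10 and 100 CPM had a lower ratio. SPTB (ENSDARG00000030490), the beta spectrin gene, had 1472 counts or 74.6 CPM in the treated and 1771 counts or 92.7 CPM in the WT library. Its log2 ratio was -0.31 (-0.41 to -0.21), or 1.24-fold lower. The interval of epb41b lay below that of SPTB without overlap.

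Ankyrin anchors band 3 to spectrin, and the 2 genes named ANK1 had ratios on opposite sides of 1. ENSDARG00000059093 had 1172 estimated counts or 59.4 CPM in the treated and 1294 counts or 67.7 CPM in the WT library, a log2 ratio of -0.19 (-0.30 to -0.07). ENSDARG00000074777 had 1481 counts or 75.1 CPM in the treated and 1209 counts or 63.3 CPM in the WT library, a log2 ratio of 0.25 (0.14 to 0.36). The second copy was the only member whose interval lay above 1 by the main scaling. The sign of each copy held under all scalings run, with ranges of -0.20 to -0.13 and 0.23 to 0.31. From FPKM with a pseudocount of 0.5 the ratios were -0.07 for the first copy and 0.29 for the second. The value of -0.07 lay just above the interval by the main scaling but inside that by total-count scaling (-0.24 to -0.01). The first copy is also the 1 member whose estimated counts are not whole numbers, so reads shared between features may have been divided there by the authors' estimation.

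In mammals, beta spectrin and ankyrin 1 are also made in muscle and brain, and skeletal muscle markers were higher in the treated library. Their list summed to 42965 CPM in the treated and 38737 CPM in the WT library, with 10 of 11 intervals above 1 and none of the 11 genes at 0. Among all 1563 genes of at least 100 CPM, 308 had an interval above 1. The part of muscle RNA in the SPTB and ANK1 values was not tested.

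**Figure D3:**
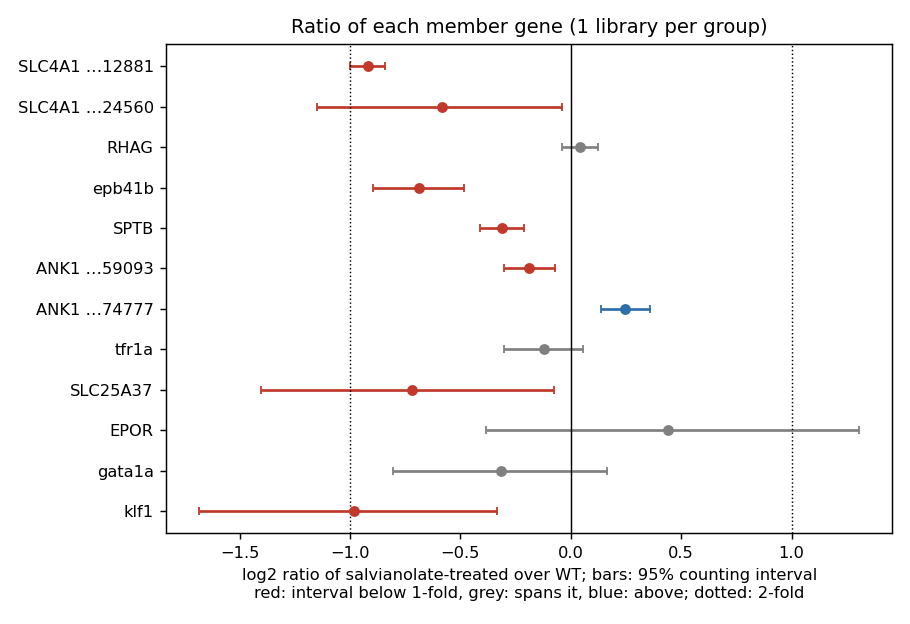
Log2 ratio of treated over WT for each member gene with its 95% counting interval, 1 library per group; red intervals lie below 1-fold, blue above, grey include it, and dotted lines mark 2-fold. The values run from -0.98 for klf1 to 0.44 for EPOR, and the copies of ANK1 lie on opposite sides of the line at 0.

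Of the genes for iron, the receptor at the cell surface and the carrier in the mitochondrion gave different values. The receptor gene tfr1a (ENSDARG00000101322) had 500 counts or 25.4 CPM in the treated and 528 counts or 27.6 CPM in the WT library. Its log2 ratio of -0.12 (-0.30 to 0.06) was not a detectable difference at this depth. SLC25A37 (ENSDARG00000073743), the mitoferrin 1 gene, had 33 counts or 1.67 CPM in the treated and 53 counts or 2.77 CPM in the WT library. Its log2 ratio was -0.72 (-1.40 to -0.07), 1.65-fold lower, and -0.42 from FPKM with a pseudocount of 0.5. The intervals of the pair overlapped, which does not show equal ratios, and the pair was not compared directly. That of SLC25A37 stayed below 1 with total-count scaling by a small margin (-1.34 to -0.01).

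The regulators stood at low levels and had wide intervals. The gene gata1a (ENSDARG00000013477), whose zinc finger protein drives erythroid development, had 67 counts or 3.40 CPM in the treated and 81 counts or 4.24 CPM in the WT library. Its log2 ratio of -0.32 (-0.81 to 0.17) was not a detectable difference. The gene klf1 (ENSDARG00000017400), an erythroid factor that binds globin promoters in mammals, had 30 counts or 1.52 CPM in the treated library, against 58 counts or 3.03 CPM in the WT library. Its log2 ratio of -0.98 (-1.68 to -0.34) was the lowest of the 12, 1.98-fold lower (1.26 to 3.21), just short of 2-fold. From FPKM with a pseudocount of 0.5, which draws low values toward 0, it was -0.58, and the abundant SLC4A1 gene was then the lowest at -0.84. Of the 8586 genes under 10 CPM, 131 had a lower ratio. EPOR (ENSDARG00000090834), the receptor through which erythropoietin keeps red cell precursors alive, had 31 counts or 1.57 CPM in the treated and 22 counts or 1.15 CPM in the WT library. The log2 ratio of 0.44 (-0.39 to 1.31) was not a detectable difference. Among the 3 regulators, 1 thus had an interval that excluded 1. The intervals of klf1 and EPOR overlapped by a small margin, which does not show equal ratios, and the pair was not compared directly.

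The threshold of 1.5-fold separated close neighbours. Just inside it were epb41b and SLC25A37 at 1.61-fold and 1.65-fold lower, and just outside was the second SLC4A1 gene at 1.4998-fold. Among the 66 pairs of member genes, 26 had intervals that did not overlap. This is a strict rule, so pairs with overlapping intervals may also differ beyond counting error. ANK1 (ENSDARG00000074777) was apart from 9 of the other 11 genes, the abundant SLC4A1 gene and RHAG from 7 each, and epb41b from 6. The 12 genes therefore did not share a single ratio between these libraries beyond counting error. The share of such pairs among all genes was not worked out, so whether this is particular to the members is not known.

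**Figure D4:**
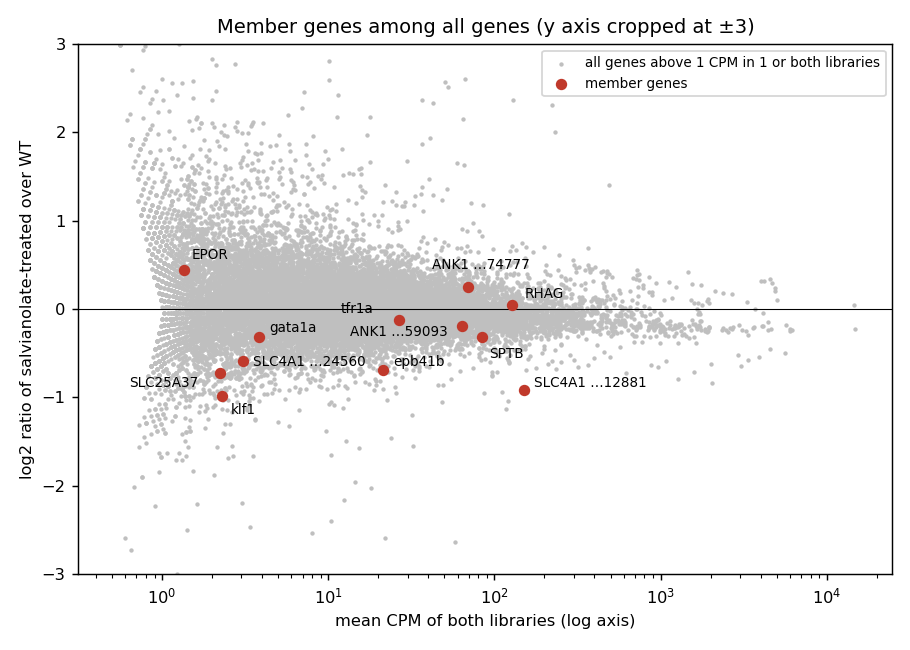
Log2 ratio of treated over WT against the mean CPM of both libraries (log axis) for all 19829 genes above 1 CPM (grey) and the 12 member genes (red), with the vertical axis cropped at 3. SLC4A1 (-0.92) lies near the lower edge of genes of its level, and RHAG (0.04) lies within them.

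Most genes for other products of erythrocytes had ratios below 1 as well. Of 14 globin names, 6 (hbbe1.1, hbbe1.2, hbbe1.3, hbbe2, hbba1 and hbba2, all beta globins) were not matched and are not analysed here. Of the 8 globin genes matched, 6 were above 1 CPM, and 5 of these had an interval below 1 and none above; the median log2 ratio was -0.75, and 2 were at least 2-fold lower. The 2 lower by the 2-fold rule were hbbe3, an embryonic beta globin gene, at -2.64 (-2.82 to -2.47), and the alpha globin gene hbae1.1 at -1.13 (-1.22 to -1.04). Of the 6 above 1 CPM, hbae3 was the most abundant, with a ratio of -0.58 (-0.59 to -0.56), and hbae5 had the highest ratio at -0.51 (-1.23 to 0.18). For the 10 haem synthesis genes the median was -0.26, with 5 intervals below 1, none above and 5 that included 1. Over all genes above 1 CPM, 17.4% had an interval below 1. The share was 20.0% between 10 and 100 CPM and 53.7% at 100 CPM or more, where most of these globin genes lay. The erythroid first enzyme of haem synthesis, alas2, had 76.3 CPM in the treated and 146 CPM in the WT library, a log2 ratio of -0.94 (-1.03 to -0.84). CPOX, a later enzyme of the path, had the highest ratio at 0.04 (-0.15 to 0.24). The interval of the abundant SLC4A1 gene overlapped those of alas2, of hbae5 and of the alpha globin gene hbae1.2, at -0.83 (-0.85 to -0.81). It lay above those of hbbe3 and hbae1.1 and below those of hbae3 and hbae1.3, the last at -0.66 (-0.69 to -0.63). Both hbae1.2 and hbae1.3 are named after their values were seen. The intervals of RHAG and SPTB lay above all 3 of alas2, hbae1.2 and hbae3.

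Lists of related genes, most of them not confined to erythrocytes, gave medians closer to 0. Of all genes above 1 CPM, 17.4% had an interval below 1 and 17.4% above. By the 2-fold rule 0.721% were lower and 2.69% higher. The share with an interval below 1 rose with level, from 7.8% under 10 CPM to 20.0% between 10 and 100 CPM and 53.7% at 100 CPM or more. The membrane and membrane skeleton list, which also holds family members used in other tissues, had 36 genes above 1 CPM with a median of 0.02, 6 intervals below 1 and 10 above. By the 2-fold rule 2 were lower and 1 was higher. RHCG (ENSDARG00000003203), an ammonium transporter gene of the Rh family, stood at 3.30 CPM in the treated and 17.5 CPM in the WT library, a log2 ratio of -2.40 (-2.81 to -2.02). The Kell blood group gene kel stood at 1.83 CPM in the treated and 3.82 CPM in the WT library, a ratio of -1.05 (-1.68 to -0.47). The 1 higher gene, sptbn1 (ENSDARG00000105428), had 29.5 estimated counts in the treated and 0 in the WT library. Set against 3 counts in the WT library it would be 9.53-fold higher, and the interval of its log2 ratio started at 2.89. The more abundant gene SPTBN1 carries the same symbol in capitals, so reads may be divided between both genes and these values are uncertain. The most abundant gene of the list was actb1, a cytoplasmic actin gene, at -0.18 (-0.19 to -0.17).

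Iron genes had a median of -0.09 over 24 genes, with 9 intervals below 1 and 3 above. Shares over all genes above 1 CPM were 17.4% below, 17.4% above and, at 1.5-fold, 2.64% lower. The transferrin gene tfa, the most abundant, had a ratio of 0.07 (0.05 to 0.09), and hamp, the hepcidin gene, 0.52 (-0.50 to 1.63). HEPH, a ferroxidase gene with 7 counts in the treated and 21 in the WT library, was lower by the 2-fold rule, at -1.56 (-3.11 to -0.34). At 1.5-fold 3 were lower, the others being STEAP3, an endosomal iron reductase gene, at -0.93 (-1.52 to -0.38), and the transferrin receptor gene TFR2 at -0.78 (-1.45 to -0.15), both named after their values were seen.

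Transcription factors of erythroid cells and blood progenitors had a median of -0.07 over 31 genes above 1 CPM, with 8 intervals below 1 and 3 above. Here too the shares over all genes were 17.4% below, 17.4% above and, at 2-fold, 0.721% lower. The repressor genes GFI1B and gfi1aa were the 2 genes lower by the 2-fold rule. GFI1B had 15 counts in the treated and 39 in the WT library, a log2 ratio of -1.39 (-2.39 to -0.53). The gene gfi1aa had 20 counts in the treated and 44 in the WT library, a ratio of -1.16 (-2.02 to -0.39). IKZF1, a lymphoid factor gene, had the highest ratio at 0.80 (0.27 to 1.36), and LDB1 (ENSDARG00000010137), a cofactor gene and the most abundant, had 0.03 (-0.04 to 0.11). Genes of erythropoietin and kit signalling had a median of -0.07 over 21 genes, with 5 intervals below 1, 3 above and none 2-fold different. Their ratios ran from -0.57 for vhl (-0.93 to -0.22), which marks hypoxia-inducible factors for breakdown, to 0.55 for the kit ligand gene kitlgb (-0.32 to 1.48). The most abundant, HIF1A, had -0.04 (-0.11 to 0.03).

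**Figure D5:**
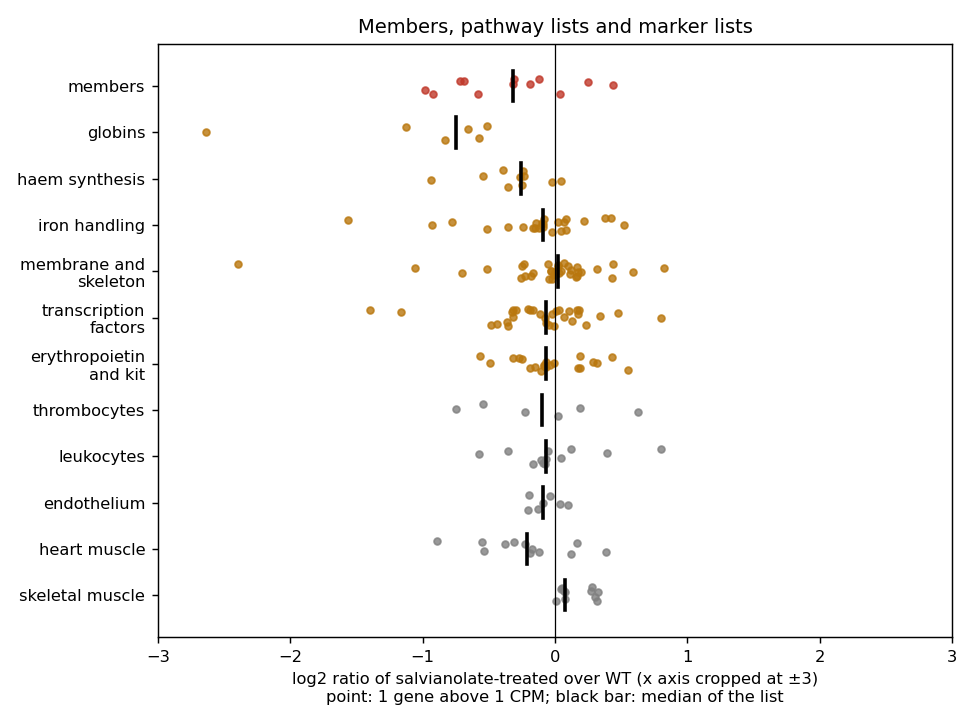
Log2 ratio of treated over WT for genes above 1 CPM in the member set (red), the pathway lists (brown) and lists of marker genes (grey), 1 point per gene with a black bar at the median and the axis cropped at 3. The globin median (-0.75) and the member median (-0.31) lie left of that of the membrane list (0.02), and skeletal muscle genes lie at or right of 0. The eye list (median 1.38) and the list of erythroid markers that are not members (median -0.55) are not drawn.

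Marker genes of other blood cells, vessels and tissues were summed in the same way. Their intervals are to be read against shares of 17.4% below 1 and 17.4% above over all genes above 1 CPM. The leukocyte list summed to 149 CPM in the treated and 162 CPM in the WT library, with 2 of 12 intervals below 1 and 1 above; of its genes, only 1 of the 3 named MPEG1 was at 0, in the treated library. The endothelial list summed to 220 CPM in the treated and 233 CPM in the WT library, with 1 of 7 intervals below 1 and no gene at 0. The thrombocyte list summed to 303 CPM in the treated and 278 CPM in the WT library, with 2 of 6 intervals below 1 and 1 above and no gene at 0. Most of that sum was THBS1, with 277 CPM in the treated and 242 CPM in the WT library. It was the 1 gene with an interval above 1, and gp9 and f5 were the 2 below. The genes itga2b and mpl were under 1 CPM in both libraries, so the sum mainly follows THBS1. The heart muscle list summed to 687 CPM in the treated and 747 CPM in the WT library, with 6 of 12 intervals below 1 and 1 above, and 1 of the 2 genes named TNNI1 was at 0 in the treated library. The gene actc1a made up most of that sum, at 575 CPM in the treated and 624 CPM in the WT library. The eye list summed to 2258 CPM in the treated and 1160 CPM in the WT library, with 9 of 10 intervals above 1 and opn1lw1 at 0 in the WT library. The erythroid markers that are not members (alas2, hbae1.1, hbae3, cahz, NFE2 and hemgn) all belong to lists given above and are not further evidence. They summed to 2963 CPM in the treated and 4493 CPM in the WT library, with 5 of 6 intervals below 1 and none at 0. Here hbae3 made up most of the sum, at 2703 CPM in the treated and 4029 CPM in the WT library. Whether the proportions of these tissues in the samples bear on the member values was not tested.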

How the data were processed

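The deposited series table gives, per the file headers, an estimated count (expected count) and an FPKM value for 26597 genes in each library. The authors' FPKM is scaled to gene length and depth. Of the deposited estimated counts, 10.4% (treated) and 10.3% (WT) are not whole. Both single-library files repeat these counts for all 26597 genes. Per the submitters' processing notes, the build was danRer11 and the tools were HISAT2, Bowtie2 2.2.8, StringTie 1.3.1, fastp 0.18.0, edgeR and DESeq2, with roles and settings not stated. Strandedness and annotation are likewise not given, and near-identical copies may share reads.

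Counts were rounded and scaled by TMM (edgeR 4.0.16, R 4.3.3) on the whole table. Log2 ratios are of treated over WT after adding 0.5 counts. Their intervals are exact 95% Clopper-Pearson intervals, those of levels exact 95% Poisson intervals; all cover counting error only. Genes needed 1 CPM in the treated, the WT or both libraries. The method was checked on simulated Poisson counts with set folds and the same scaling, so the check does not cover variation between replicates. Other steps ran in Python 3.11.15 (scipy 1.17.1, numpy 2.4.6, matplotlib 3.10.9, pandas 2.3.3). Alternatives were other scalings (DESeq2 1.42.0 size factors, total count, upper quartile, without globins), floors, priors, folds and FPKM.

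Named genes were all members; the highest, lowest and most abundant gene of each of 6 pathway lists; and list genes different by the 2-fold rule; any other was chosen after its values were seen. A table pairing gene IDs with symbols held 132 of 149 list names. Members and lists were chosen with earlier results of these data known.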

Additional observations from a re-analysis of the deposited data

How the results depend on the processing

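No paired analysis was possible because there is 1 library per condition. The number of members at least 2-fold lower was 0 under every scaling, floor, prior and unit run and 4 at 1.5-fold. The number with an interval below 1 was 7; it was 6 with total counts, 4 with a floor of 5 CPM and 4 for members of at least 10 CPM, the last chosen after seeing the data, where fewer members enter. It gives no value with FPKM, and the globin median gives none when globins are left out. The member median of -0.31 ranged up to -0.19 (floor of 5 CPM), and no sign of a member changed in any setting that holds it, though FPKM gave -0.07 for ANK1 (ENSDARG00000059093), -0.58 for klf1 and -0.42 for SLC25A37. Over all genes, 143 were lower and 533 higher by the 2-fold rule. At 1.5-fold it was 523 lower and 1204 higher, in FPKM 82 lower and 335 higher, at a 5 CPM floor 33 lower and 181 higher, and without a floor 235 lower. Low counts limit klf1, EPOR, SLC25A37, gata1a and the second SLC4A1 gene, each under 100 counts.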

Other observations

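Relatives of the members gave values of their own. These genes were picked after their values were seen, and the tissue in which each is expressed was not examined. EPB41, the protein 4.1 gene outside the member set, stood at 55.6 CPM in the treated and 53.2 CPM in the WT library, a log2 ratio of 0.06 (-0.06 to 0.19), an interval that does not overlap that of epb41b. EPB41L3, a relative known from brain in mammals, had 0.44 (0.32 to 0.56). The anion exchanger genes named SLC4A2 had 0.03 (-0.14 to 0.20) and 0.02 (-0.17 to 0.22), and slc4a3, with 90 counts in the treated and 49 in the WT library, had 0.83 (0.31 to 1.36). The ankyrin genes ank2a and ank2b had 0.20 (0.06 to 0.34) and 0.16 (0.10 to 0.22), while ANK3 and ank3b had -0.03 (-0.10 to 0.03) and -0.03 (-0.19 to 0.13). SPTBN1 (ENSDARG00000102883), a beta spectrin gene of other tissues, stood at 445 CPM in the treated and 417 CPM in the WT library, a ratio of 0.09 (0.05 to 0.14). The second transferrin receptor gene, tfr1b, stood at 38.7 CPM in the treated and 38.1 CPM in the WT library, and the second mitoferrin gene, SLC25A28, at 46.4 CPM in the treated and 44.9 CPM in the WT library. Their ratios were 0.02 (-0.13 to 0.17) and 0.05 (-0.09 to 0.18), neither a detectable difference at this depth.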
